A study of Bos taurus with 24 samples.

Results

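The MHC class II antigen presentation genes measured in these bovine ovarian follicles were BOLA-DRA, BOLA-DRB3, CD74 and BOLA-DMA. With earlier results of these data known, they were chosen by name, as features whose platform annotation gave 1 of these 4 symbols alone. They covered 13 of the 17418 features of the array, and 4 of the 9425 genes that had a feature with a single symbol. BOLA-DRA had 2 features, BOLA-DRB3 and CD74 had 5 each, and BOLA-DMA had 1. All 13 had values on at least 20 of the 24 arrays, the minimum for testing. A further 8 features carried several symbols, at least 1 of them a class II chain, and were left unnamed.

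RNA came from the largest follicle of each of 16 heifers, between 8 mm and 12 mm across, and the series is titled as a study of follicle selection. Each 2-colour array compared a pair of follicles, each follicle was on 3 arrays, and both dyes were used for each follicle. The labels give each follicle a code (26, 27, 31, 33, 46, 8, 861, C10, C12, C13, C22, C26, C32, C35, H893 and J980) and no treatment, stage, dominance status or age, so the follicles are compared with each other. Each code is 1 follicle of 1 animal, and the standard errors below describe error between arrays, not variation between animals of a kind.

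MHC class II molecules are pairs of an alpha and a beta chain that carry peptides from ingested proteins to the cell surface, where helper T cells read them. BOLA-DRA encodes the alpha chain and BOLA-DRB3 the main expressed beta chain of the cattle DR molecule. CD74, the invariant chain, holds the groove shut on the way to the endosome, and BOLA-DMA is a chain of the DM molecule that helps exchange its remnant for a peptide. In most tissues these genes are expressed by macrophages, dendritic cells and B cells, and interferon gamma switches them on in other cells through the transactivator CIITA.

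The deposited values were log ratios of both channels, whose log base and direction are not stated. They were read as log2 of Cy5 over Cy3, the order in which the sample titles name the follicles. With the opposite direction every level and every difference between follicles changes sign, and correlations between genes do not. A follicle's level is its value in a linear model over all arrays, with the mean of the 16 follicles at 0, and the median standard error of a level was 0.12 over the 4 genes. Arrays held 16094 to 17028 values. Follicle J980 stood apart in other genes, with the lowest levels of the granulosa cell genes INHBA (-2.69) and FST (-2.05) and the highest level of interferon-induced ISG15 (3.11), so calls that changed without it are given.

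BOLA-DRA had the widest range of the 4 genes, with C32 and C26 at its top. Its level was 1.24 ± 0.14 (SE) in follicle C32, 1.23 ± 0.12 in C26, 0.58 ± 0.14 in J980 and 0.31 ± 0.12 in 33. Follicles C35 (0.09), 27 (0.02), 26 (0.01) and C13 (0) lay at the mean, followed by 861 (-0.18), C22 (-0.30), C10 (-0.32), C12 (-0.35), 8 (-0.39) and H893 (-0.46). The lowest levels were -0.63 ± 0.13 in follicle 31 and -0.83 ± 0.14 in follicle 46. C32 and C26 thus stood clear of the others, which formed a gradual slope. The difference of C32 over 46 was 2.06 ± 0.23, a 4.18-fold difference if the values are log2 (adjusted p = 3.58e-05, over the 120 follicle pairs of the gene). Because whole follicles were extracted, fewer cells that express a gene and less RNA per cell cannot be told apart.

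Of the 120 follicle pairs, 63 differed in BOLA-DRA. Among the 15 neighbours in the order of levels, only C26 and J980 differed, by 0.65 ± 0.18 (adjusted p = 0.0107), while C32 exceeded C26 by 0.01 ± 0.15 (adjusted p = 0.963). The number of pairs fell to 34 without the array of C26 against 33 and to 38 without that of C10 against 26. The single arrays showed the same split directly. The 3 arrays of follicles 8, C22 and 27 against C32 or C26 had BOLA-DRA log ratios of -1.36, -1.37 and -1.37, and C26 over 33 gave 1.01. On the array that carried both C32 and C26, the log ratio of C32 over C26 was 0.02.

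BOLA-DRB3 had the same follicles at the top, in a narrower range. Its levels were 0.81 ± 0.10 in C26, 0.69 ± 0.11 in C32, 0.47 ± 0.11 in C35, 0.40 ± 0.10 in 33 and 0.30 ± 0.10 in 26. The median over follicles was -0.14, and the lowest levels were -0.46 ± 0.12 in 46 and -0.48 ± 0.12 in H893. C26 exceeded H893 by 1.29 ± 0.18 (adjusted p = 0.000307), which is 2.45-fold on a log2 reading. In all, 57 of 120 pairs differed and no neighbours in the order did. Without the array of C10 against 26, the count was 25.

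CD74 had the smallest range of the 3 genes that differed between follicles. It was highest in C32 (0.53 ± 0.10) and C26 (0.49 ± 0.09), followed by C35 (0.28), 26 (0.24), 33 (0.22) and C10 (0.14). Its median was -0.11, and it was lowest in 31 (-0.32 ± 0.10) and 8 (-0.36 ± 0.10). C32 exceeded 8 by 0.89 ± 0.11 (adjusted p = 0.00038), or 1.86-fold if log2, and 45 of 120 pairs differed, none of them neighbours. That count was 9 without the array of C26 against 33, also 9 without that of C10 against 26, and 29 without that of 33 against C12.

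BOLA-DMA had another order of fitted levels, with no difference between follicles past the threshold. Its highest levels were 0.57 ± 0.20 in follicle 31, 0.53 ± 0.24 in C35 and 0.50 ± 0.27 in C26, its median was -0.03, and its lowest were -0.43 ± 0.37 in 8 and -0.50 ± 0.19 in 861. Follicle 31, at the top here, was next to lowest in BOLA-DRA and CD74, and C32 lay at -0.38 ± 0.39. Because of missing values, the level of C32 rested only on the array of 27 against C32. That of 8 rested only on the array of J980 against 8. No pair of the 120 differed by the limma contrasts (31 over 861, 1.06 ± 0.22, adjusted p = 0.116). The median standard error of a BOLA-DMA pair difference was 0.36, against 0.20 for BOLA-DRA, so smaller differences were not detectable. Without the array of 31 against C10, 6 pairs passed.

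**Figure D1:**
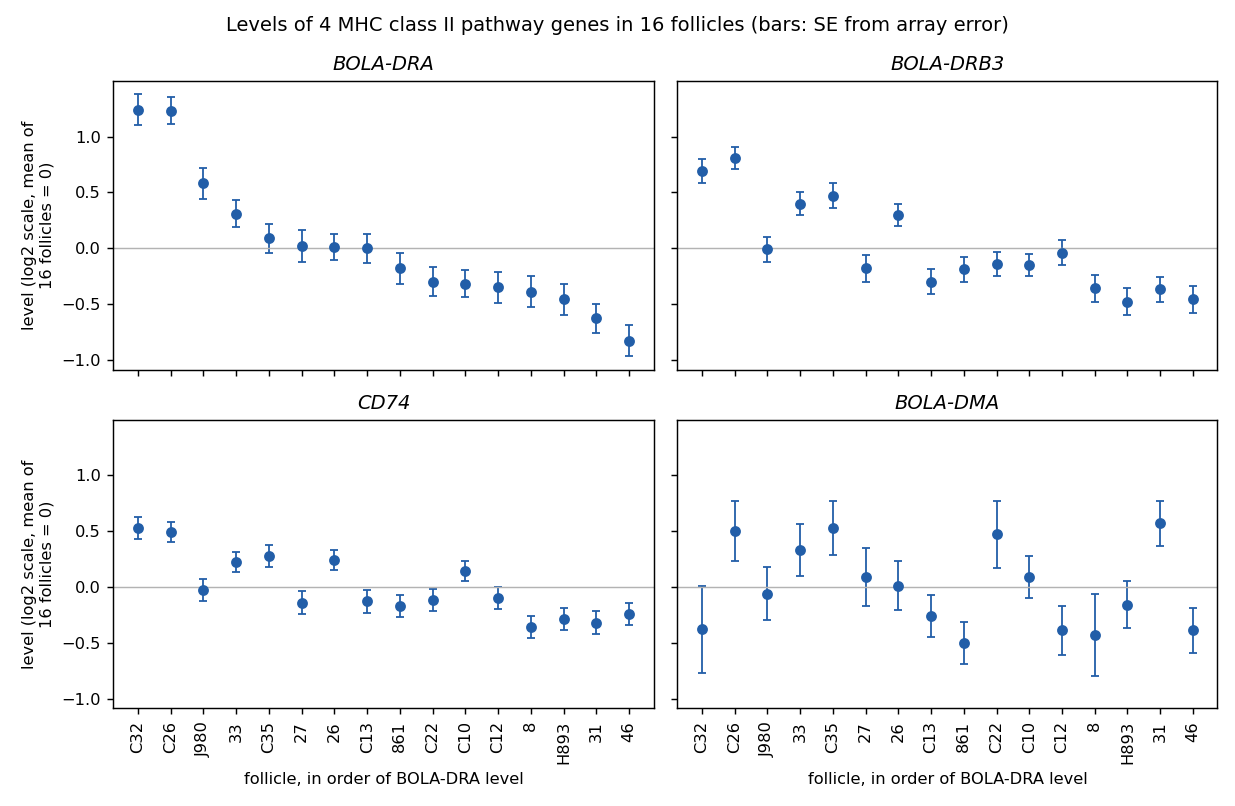
Levels of BOLA-DRA, BOLA-DRB3, CD74 and BOLA-DMA (vertical axis, log2 scale with the mean of 16 follicles at 0) in each follicle (horizontal axis, ordered by BOLA-DRA from high to low). Points are fitted levels and bars are standard errors from array error. C32 and C26 are highest in the first 3 panels, J980 is high in BOLA-DRA alone of those 3, and BOLA-DMA shows no such slope.

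In the F test over all follicles, 3 of the 4 genes passed an adjusted p of 0.05, against 11.8% of the 9026 genes tested. The 4 genes were chosen with earlier results of these data known, so their share is not that of a blind choice. Counts in the gene lists below are also to be read against this 11.8%, and a count near it does not mark a list out. Adjusted p was 0.000358 for BOLA-DRA, 0.00131 for BOLA-DRB3, 0.00559 for CD74 and 0.198 for BOLA-DMA. The median standard deviation of levels between follicles was 0.39 for the 4 genes and 0.17 for all genes. The calls of BOLA-DRA, BOLA-DRB3 and CD74 held without J980. Without C26 and C32 and their 5 arrays, an alternative chosen after seeing the data, BOLA-DRA kept its call (adjusted p = 0.0159, with 27 pairs), while BOLA-DRB3 (0.0595) and CD74 (0.158) lost theirs and had 0 pairs. In that fit 5.44% of all genes passed.

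The single features did not all show the pattern of their gene. Of the 13 features, 10 passed the F test, against 12.2% of the 16358 features tested. Both BOLA-DRA features passed and correlated at r = 0.802 over the 16 follicles. They differed in follicle 27, where feature 1 was at 0.35 and feature 2 at -0.58, and had J980 at 0.67 and 0.73. The 5 BOLA-DRB3 features agreed closely, with pairwise r of 0.835 to 0.953. They differed mainly in range: feature 3 reached 1.16 in C26 and -0.84 in H893, while feature 1 reached 0.39 in C26 and missed the threshold (adjusted p = 0.0629).

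The CD74 features fell into different patterns. Features 2 and 4 had median correlations of 0.916 and 0.908 with the 7 BOLA-DRA and BOLA-DRB3 features, and both reached 1.14 in C32. Feature 5 was highest in follicle 33 (0.80) with a median r of 0.468, and feature 3 hardly varied (0.22 in C32 to -0.18 in 46, adjusted p = 0.457). Feature 1 was highest in C12 (0.29) and lowest in 27 (-0.47), with a median r of -0.319. The 10 pairs of CD74 features had a median r of 0.136, from -0.584 to 0.956. The CD74 level is the mean of all 5, and its range was narrower than that of features 2 and 4. With 1 feature per gene, CD74 was feature 5 and BOLA-DRA feature 1, and r between them was 0.182. CD74 feature 5 had r of 0.32 with BOLA-DRA feature 2.

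**Figure D2:**
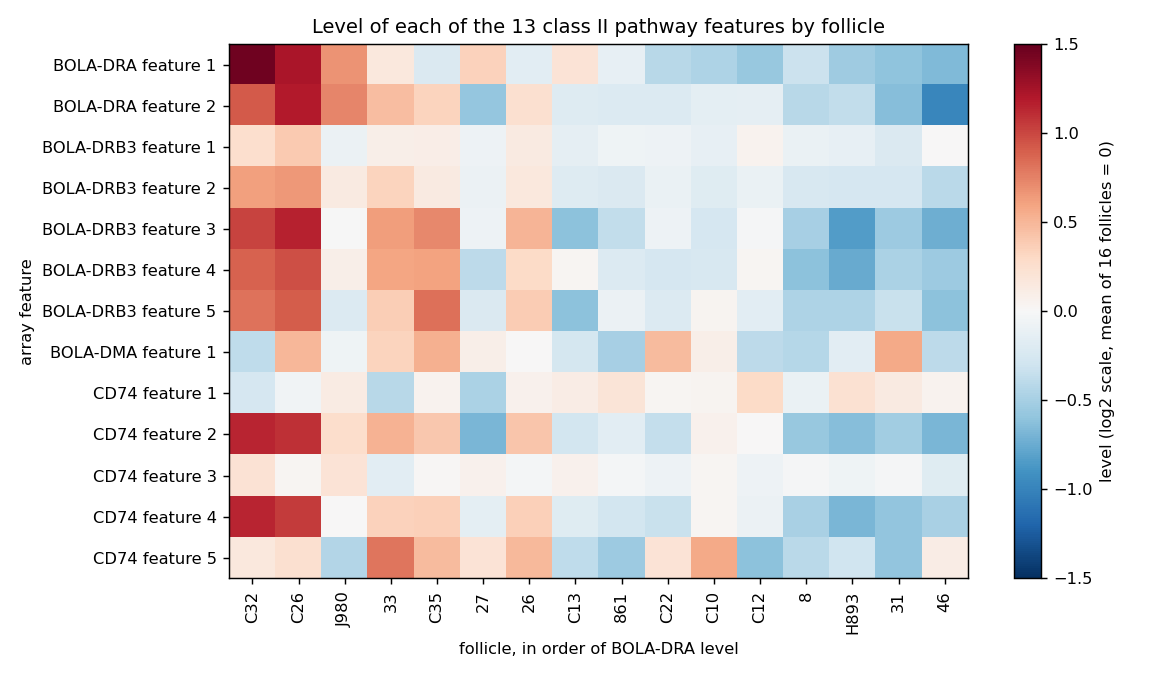
Level of each of the 13 features (rows) in each of 16 follicles (columns, ordered by BOLA-DRA from high to low), as colour on the log2 scale with the mean of the follicles at 0. The BOLA-DRA and BOLA-DRB3 features and CD74 features 2 and 4 are red in C32 and C26, and CD74 features 1 and 3 and BOLA-DMA are not red in both.

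Across the 16 follicles, BOLA-DRA, BOLA-DRB3 and CD74 went together. Pearson r was 0.858 for BOLA-DRA with BOLA-DRB3 (rho = 0.862), 0.826 for BOLA-DRA with CD74 (rho = 0.812) and 0.955 for BOLA-DRB3 with CD74 (rho = 0.941). The adjusted permutation p of r was 0.000187, 0.000294 and 8.4e-05 in that order, two-sided, from 100000 resamples and adjusted over 42 relations computed. The raw p of the last pair, 1e-05, is the smallest these resamples can give. Without the levels of C26 and C32, the follicles farthest from the median, r was 0.681, 0.607 and 0.915 with no refit. Refitted without the arrays of these follicles, r was 0.739, 0.653 and 0.899. With 1 feature per gene, r of BOLA-DRB3 with CD74 was 0.574, and with features on all 24 arrays r of BOLA-DRA with CD74 was 0.537, and neither passed. Levels of follicles that shared an array share its error, and the permutation treats them as independent, so these p-values may be too small. BOLA-DMA had r of 0.154 with BOLA-DRA, 0.351 with BOLA-DRB3 and 0.298 with CD74, all short of the threshold (adjusted p = 0.582, 0.261 and 0.33), and the sign of each turned when single arrays were left out.

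Follicle J980 set the DR chains apart. It ranked 3 of 16 in BOLA-DRA (0.58 ± 0.14) but at -0.01 ± 0.11 in BOLA-DRB3 and -0.03 ± 0.10 in CD74. Measured as a difference on the same arrays, BOLA-DRB3 minus BOLA-DRA was -0.58 ± 0.18 in J980, -0.54 ± 0.18 in C32 and -0.42 ± 0.16 in C26, and it was highest in C35 at 0.38 ± 0.18. The F test of this difference over follicles had an adjusted p of 0.00101 for BOLA-DRB3 and 0.000172 for CD74. It says little about these genes, since 99.8% of all genes differed from BOLA-DRA in this test. In the RefSeq annotation of the ARS-UCD2.0 assembly, 1 protein-coding gene lies between BOLA-DRA and BOLA-DRB3 on chromosome 23. BOLA-DMA is on the same chromosome, 249 protein-coding genes from BOLA-DRA, and CD74 is on chromosome 7.

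Among other class II chains, 1 of 4 measured genes passed the F test. BOLA-DQA1, the alpha chain of the DQ molecule, was highest in C26 (1.35), with C32 at 1.16, and lowest in 46 (-0.93; adjusted p = 0.000318). Of genes past the F test threshold it had the highest r with BOLA-DRA (0.947) and with BOLA-DRB3 (0.958). In J980 it stood at 0.39, between the BOLA-DRA and BOLA-DRB3 levels. BOLA-DMB, the partner chain of BOLA-DMA and its immediate neighbour among protein-coding genes, did not pass (adjusted p = 0.17). Its levels ran from 0.40 in C26 to -0.35 in 31, and its r was 0.703 with BOLA-DRA and -0.09 with BOLA-DMA. The DM chains thus had different highest and lowest follicles, and neither passed the F test.

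Of 7 measured regulators of class II transcription, 2 passed. CIITA was highest in follicle 8 (0.66) and lowest in 31 (-0.56; adjusted p = 0.0231). Follicle 8 ranked 13 or lower of 16 in all 4 class II genes, while C32 and C26 had CIITA at 0.41 and 0.35. Its r was 0.476 with BOLA-DRA, 0.458 with BOLA-DRB3 and 0.378 with CD74, none past the threshold (adjusted p = 0.124, 0.135 and 0.242). These values moved both ways when follicles or arrays were left out. Without the level of follicle 8, r was 0.7, 0.725 and 0.722, all past the threshold. Without J980, r with BOLA-DRA was 0.559 and passed. Without the array of C26 against 33, r also passed with BOLA-DRA and BOLA-DRB3. Without C26 and C32, r fell to 0.278 with BOLA-DRA and 0.356 with BOLA-DRB3. Without the array of C10 against 26, it was 0.275 with BOLA-DRA, 0.321 with BOLA-DRB3 and 0.242 with CD74. RFXANK, a subunit of the factor that binds the X box of class II promoters, ran from 0.33 in C32 to -0.39 in C13 (adjusted p = 0.0351), with r of 0.685, 0.756 and 0.699 with the same 3 genes. CIITA and RFXANK lost their call without C26 and C32 (adjusted p = 0.0966 and 0.152) and without J980 (0.0526 and 0.0521). With 1 array left out, RFXANK lost it in 20 of 24 fits (adjusted p up to 0.208) and CIITA in 5 (up to 0.0789).

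A list of 12 measured genes held lysosomal proteases and other proteins that prepare antigen, the protease inhibitor CST3 and the co-stimulatory or activation molecules CD86, CD40 and CD83. Of these, 2 passed the F test, against 11.8% of all genes, and neither was highest in C26 or C32. Neither passed without C26 and C32 (adjusted p = 0.0601 for CTSZ and 0.15 for IFI30). IFI30 also lost its call in 17 of 24 fits that left out 1 array (adjusted p up to 0.0899). CTSZ, a lysosomal protease, was highest in C35 (0.21) and lowest in J980 (-0.49; adjusted p = 0.00559). IFI30, which reduces disulphide bonds in the lysosome, was also highest in C35 (0.40) and lowest in J980 (-0.38; adjusted p = 0.0351). CTSS, the protease that trims the invariant chain, had r of 0.911 with BOLA-DRB3 and 0.877 with CD74 and levels from 0.69 in C26 to -0.40 in C12, with an adjusted p of 0.0511. It is named because of that value, after the levels were seen.

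Class I presentation, which shows peptides from inside the cell, had 4 of 15 genes past the threshold. The class I heavy chain feature set named BOLA was highest in 33 (0.73) and lowest in 27 (-0.97; adjusted p = 0.0001), with r of 0.379 with BOLA-DRA. B2M, the light chain of class I, went with the class II genes (r = 0.632 with BOLA-DRA, 0.843 with BOLA-DRB3 and 0.871 with CD74; adjusted p = 0.0192, 0.000305 and 8.4e-05). Represented by the 1 B2M feature with a value on all 24 arrays, B2M did not pass the F test (adjusted p = 0.529) and had r of -0.028 with BOLA-DRA, which was then feature 1 alone. In that setting r of B2M was 0.366 with BOLA-DRB3 and 0.535 with CD74, and neither passed. The peptide transporter TAP1 was highest in 46 (0.45), the follicle lowest in BOLA-DRA, and lowest in J980 (-0.34; adjusted p = 0.00972). The immunoproteasome subunit PSMB9 was highest in H893 (0.56) and lowest in 46 (-0.26; adjusted p = 0.00271). The 15 genes had a median r of 0.16 with BOLA-DRA and 0.27 with BOLA-DRB3, against -0.02 and -0.03 over all 9025 other genes.

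**Figure D3:**
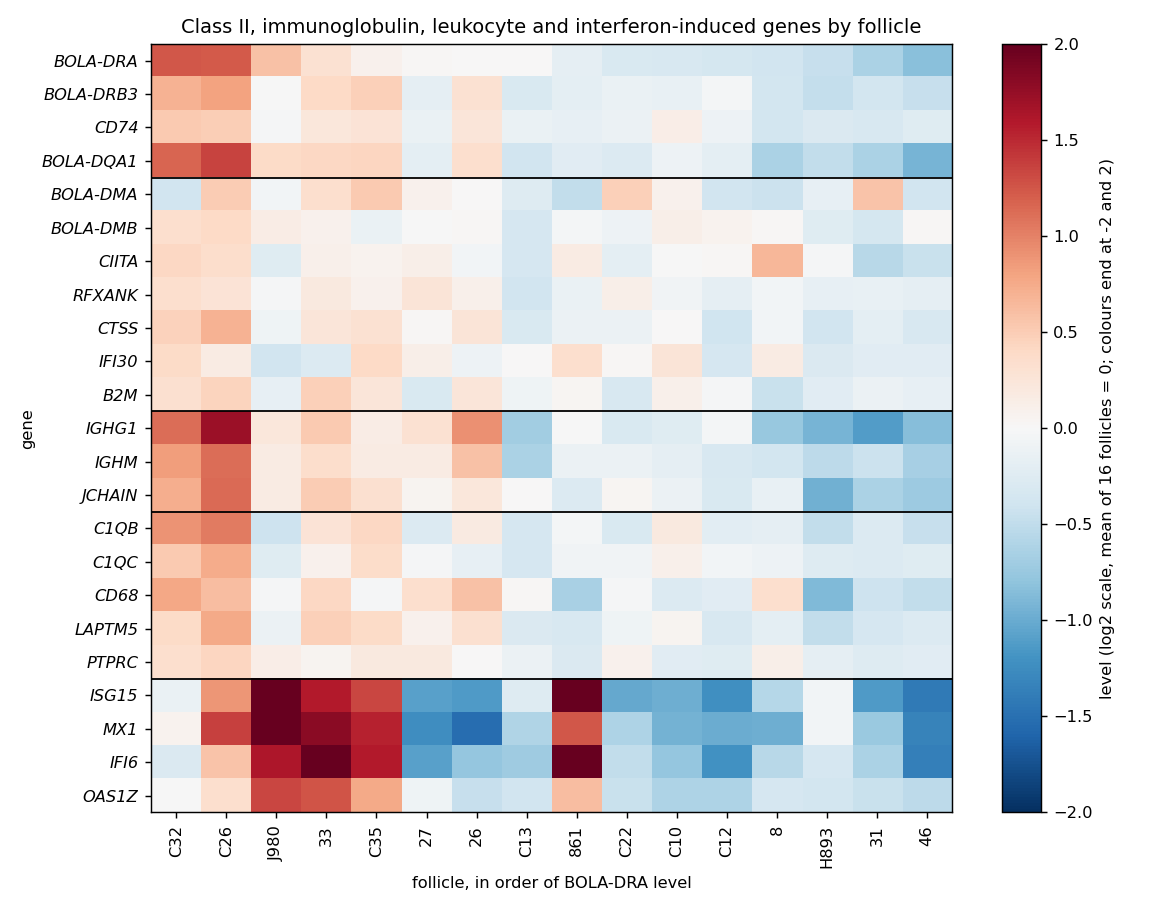
Levels of 23 genes (rows) in 16 follicles (columns, ordered by BOLA-DRA from high to low) as colour on the log2 scale, with lines between the DR, CD74 and DQ genes, the other presentation genes, the immunoglobulin genes, the leukocyte genes and the interferon-induced genes. C32 and C26 are red in the immunoglobulin block and in the complement genes C1QB and C1QC, while J980, 33, C35 and 861 lead the interferon-induced block.

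The interferon-induced genes had another order of follicles. Of 21 measured, 7 passed the F test, among them ISG15, MX1, IFI6, IFI27, OAS1Z and EPSTI1. ISG15, a ubiquitin-like modifier, stood at 3.11 in J980, 2.09 in 861, 1.58 in 33 and 1.33 in C35, at 0.88 in C26, and at -0.14 in C32. C32, the follicle highest in BOLA-DRA, was thus near the mean in ISG15, and 861, second in ISG15, had BOLA-DRA at -0.18. MX1, an antiviral GTPase, was at 3.03 in J980, 1.37 in C26, 0.07 in C32 and -1.53 in 26, its lowest. The lowest ISG15 level was -1.41, in 46, which was also lowest in BOLA-DRA.

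Correlations with ISG15 were 0.496 for BOLA-DRA, 0.355 for BOLA-DRB3, 0.269 for CD74 and 0.064 for BOLA-DMA. None passed on Pearson's r (adjusted p = 0.103, 0.261, 0.377 and 0.814), whereas the rank correlation of BOLA-DRA with ISG15 did (rho = 0.612, adjusted p = 0.034). Each r with ISG15 was higher without the levels of J980 and 861, the follicles farthest from the median for these pairs, with no refit. It was then 0.574 for BOLA-DRA, 0.625 for BOLA-DRB3, 0.546 for CD74 and 0.394 for BOLA-DMA. The lower r over all follicles thus rested in part on J980 and 861. For BOLA-DRA with MX1, r was 0.558 (adjusted p = 0.0531) and rho 0.588 (adjusted p = 0.0436). That r passed in 11 of 40 fits that left out an array or a follicle, ranging from 0.505 to 0.663. It also passed with no dye term (0.569), and was 0.51 without the levels of J980 and 33. Refitted without C26 and C32, r of BOLA-DRA with ISG15 was 0.686 and passed the threshold, as it did without the level of C32 (0.614) or the array of C26 against 33. Without J980, r of BOLA-DRB3 with MX1 was 0.567 and passed, against 0.455 with it. The 21 genes had a median r of 0.39 with BOLA-DRA, 0.38 with BOLA-DRB3, 0.28 with CD74 and 0.19 with BOLA-DMA. Of 8 genes listed as responding to interferon gamma, 2 passed: WARS1, a tryptophan tRNA ligase, ran from 0.51 in C26 to -0.61 in C13, and ICAM1, an adhesion molecule, from 0.42 in C22 to -0.37 in C32. Neither passed once C26 and C32 were left out (adjusted p = 0.0653 and 0.0964), and ICAM1 lost its call in 18 of 24 fits that left out 1 array. The 8 genes had a median r of 0.38 with BOLA-DRA, 0.51 with BOLA-DRB3 and 0.5 with CD74, and 6 of 8 were above 0 with each. GBP5, an interferon-induced GTPase named after its values were seen, was highest in C26 (0.94) and lowest in 46 (-0.62), with r of 0.875, 0.898 and 0.802, and missed the threshold (adjusted p = 0.0588).

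On the same arrays, each class II level minus the mean of the 21 interferon-induced genes showed the divergence by follicle. For BOLA-DRA it was 1.26 ± 0.13 in C32 and 0.90 ± 0.12 in C26, and -0.66 ± 0.13 in 861. In J980 it was -0.08 ± 0.13 for BOLA-DRA, -0.67 ± 0.13 for BOLA-DRB3 and -0.69 ± 0.12 for CD74. The subtracted mean was only 0.66 in J980, since it averages all 21 genes, of which 7 passed the F test. ISG15 was at 3.11 and MX1 at 3.03 there, so a difference near 0 does not put BOLA-DRA at their level. All 4 genes differed from the interferon-induced mean in the F test over follicles, with adjusted p from 7.57e-06 for BOLA-DRA to 0.000589 for BOLA-DMA. So did 98.7% of all genes, and 78.0% when the median of the list was subtracted, so the calls do not mark these genes out.

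Immunoglobulin had C26 and C32 at its top. IGHG1, the IgG heavy chain, was at 1.71 in C26, 1.12 in C32 and 0.92 in 26, and lowest in 31 (-1.11; adjusted p = 0.000318). JCHAIN, which joins IgM and IgA units, was at 1.14 in C26 and 0.72 in C32, and lowest in H893 (-0.96; adjusted p = 0.0121). IGHM, the IgM heavy chain, ran from 1.12 in C26 to -0.66 in 46 (adjusted p = 0.00523). These were the 3 of 6 immunoglobulin and plasma cell genes that passed. C26 and C32 were the top follicles in BOLA-DRA, BOLA-DRB3 and CD74 as well as in JCHAIN, IGHM and IGHG1. JCHAIN (adjusted p = 0.111) and IGHM (0.0556) lost their call without C26 and C32.

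For IGHG1, r was 0.866 with BOLA-DRA, 0.914 with BOLA-DRB3 and 0.883 with CD74 (rho = 0.903, 0.891 and 0.838; adjusted p of r = 0.000157, 0.00012 and 8.4e-05). Without the levels of C26 and C32, and with no refit, r was 0.733, 0.833 and 0.791. For JCHAIN, r was 0.893, 0.908 and 0.861 with the same genes. With 1 feature per gene, CD74 had r of 0.523 with IGHG1 and 0.512 with JCHAIN and passed with neither. BOLA-DMA had r of 0.201 with IGHG1 and 0.334 with JCHAIN (adjusted p = 0.488 and 0.278). Whether the correlation with IGHG1 exceeds that with ISG15 was not tested. IGHG1 had the same sign as BOLA-DRA on 20 of 24 arrays and ISG15 on 19 of 24, against 17 for BOLA-DRB3 and 18 for CD74, so the sign alone did not separate them.

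The profiles were alike in order but not identical. BOLA-DRA minus IGHG1 was 0.69 ± 0.22 in C13 and -0.91 ± 0.20 in follicle 26, where IGHG1 was high and BOLA-DRA at the mean. BOLA-DRB3 minus IGHG1 was lowest in C26 (-0.91 ± 0.21), where IGHG1 had the larger excess. All 4 genes differed from IGHG1 in the F test, as did 99.9% of all genes. With JCHAIN subtracted in place of IGHG1, BOLA-DRB3 (adjusted p = 0.346) and CD74 (0.122) did not pass while BOLA-DRA (0.0226) and BOLA-DMA (6.47e-05) did. In that test 99.5% of all genes passed, so BOLA-DRB3 and CD74 were among the few that did not.

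**Figure D4:**
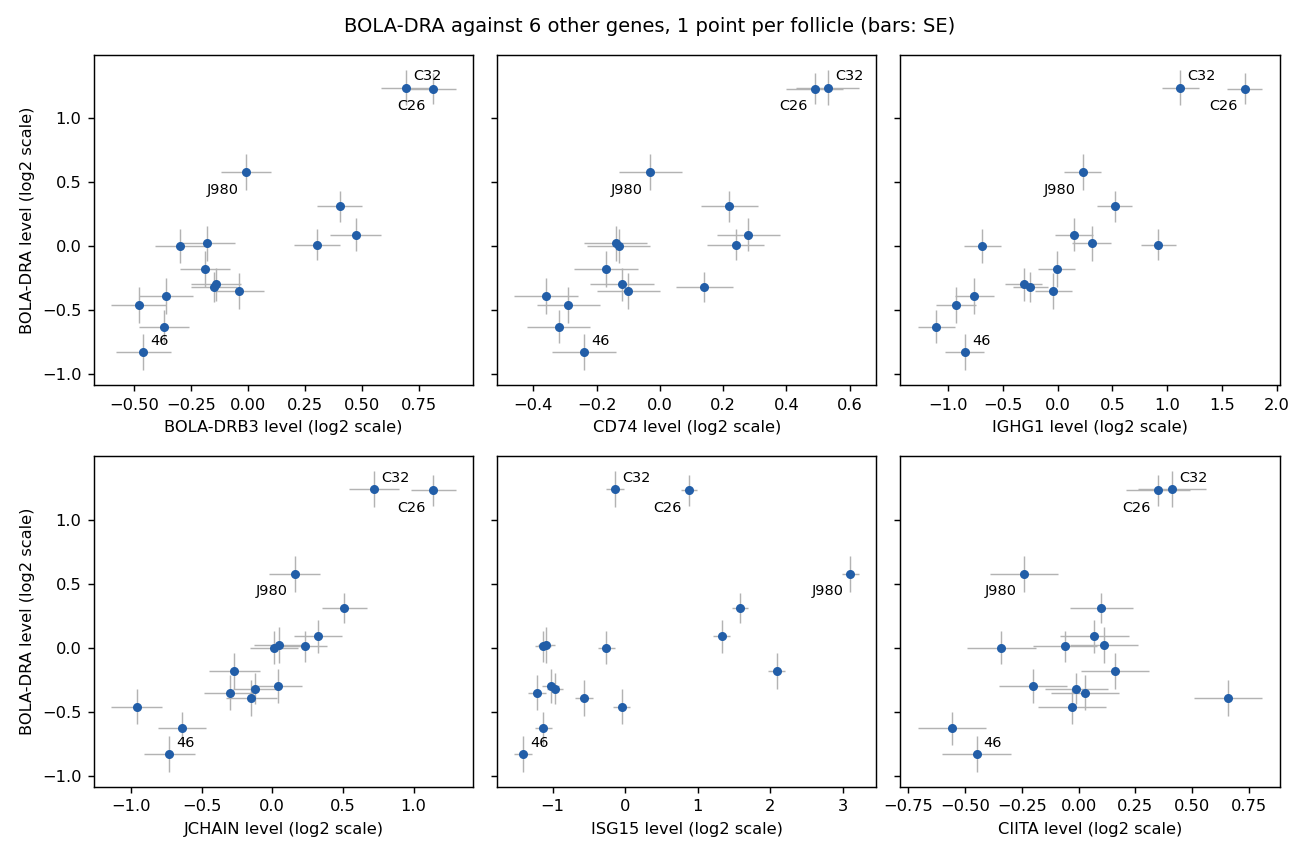
BOLA-DRA level (vertical axis) against the levels of BOLA-DRB3, CD74, IGHG1, JCHAIN, ISG15 and CIITA (horizontal axes), on the log2 scale, with 1 point per follicle and bars for standard errors. Points rise along a line for IGHG1 (r = 0.866) and JCHAIN (r = 0.893), while for ISG15 (r = 0.496) C32 and C26 lie above the rest and J980 far to the right.

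Markers of leukocytes moved with the class II genes in part. The 22 macrophage and dendritic cell genes had a median r of 0.56 with BOLA-DRA, 0.48 with BOLA-DRB3 and 0.47 with CD74. Of the 22, 19 were above 0 with BOLA-DRA, 16 with BOLA-DRB3 and 15 with CD74. Over all genes, 4345 of 9025 were above 0 with BOLA-DRA. The lowest r in the list was -0.18, -0.34 and -0.29 in the same order, so some of its genes did not follow. The 18 T and NK cell genes had a median r of 0.43 with BOLA-DRA, with 15 above 0. With BOLA-DRB3 the median was 0.35 with 13 above 0, and with CD74 it was 0.31 with 14. In the macrophage and dendritic cell list 7 genes passed: CD53, C1QB, C1QC, LAPTM5, CD68, FLT3 and TYROBP. C1QB, a complement chain made by macrophages, was at 1.04 in C26 and 0.90 in C32, lowest in H893 (-0.49), and had r of 0.916 with BOLA-DRB3 and 0.915 with CD74. CD68, a lysosomal protein of macrophages, was at 0.78 in C32 and 0.61 in C26 and lowest in H893 (-0.89), with r of 0.718, 0.728 and 0.674 with BOLA-DRA, BOLA-DRB3 and CD74. FLT3, a receptor of dendritic cell precursors, was instead highest in C13 (0.82), with r of 0.091 with BOLA-DRA. TYROBP was also highest in C13 (0.61), and lowest in 46 (-0.75), with r of 0.661 with BOLA-DRA. Without C26 and C32, C1QB (adjusted p = 0.101) and CD68 (0.0765) lost their call, and CD68 also without J980 (0.0814) and in 7 of 24 fits that left out 1 array. In the fit without C26 and C32, r of CD68 was 0.568 with BOLA-DRA, 0.604 with BOLA-DRB3 and 0.515 with CD74, none past the threshold. The mean level of the 22 genes was 0.37 in C26 and 0.27 in C32, the highest follicles, and -0.23 in H893, the lowest.

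PTPRC, the antigen CD45 of all leukocytes, had r of 0.801 with BOLA-DRA, 0.734 with BOLA-DRB3 and 0.643 with CD74 (adjusted p = 0.000455, 0.00384 and 0.0188). PTPRC itself did not pass the F test (adjusted p = 0.596), with levels from 0.43 in C26 to -0.29 in 861. Its call with CD74 was lost without C26 and C32 (r = 0.483), with 1 feature per gene (0.422) and in 5 of 40 fits that left out an array or a follicle. That with BOLA-DRB3 was lost without the array of C10 against 26 (0.519). None of 5 B cell genes passed by limma, and their median r with BOLA-DRA was -0.34. The B cell gene of smallest p, CD37, ran from 0.48 in 26 to -0.51 in C12 (unadjusted p = 0.117). CXCR4, a chemokine receptor, was the 1 of 18 T and NK cell genes that passed. It was highest in J980 (2.06), followed the interferon-induced genes (r = 0.952 with ISG15) and had r of 0.457 with BOLA-DRA (adjusted p = 0.135). That r was 0.734 and passed without C26 and C32, as it did without the array of C26 against 33 (0.649). The part of these cells in the class II levels was not tested.

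Genes of granulosa and theca cells, blood vessels and red blood cells were compared as lists. Over all genes tested, 11.8% passed the F test. Of 9 granulosa cell genes 5 passed (INHBA, INHA, FST, AMH and GATM), of 3 theca cell genes all 3 (INSL3, CYP11A1 and HSD3B1), of 8 endothelial genes 1 (PECAM1) and of 4 red blood cell genes 1 (ALAS2). With 1 array left out, INSL3 lost its call in 20 of 24 fits (adjusted p up to 0.154) and CYP11A1 in 19 (up to 0.124). GATM had r of 0.678 with BOLA-DRA and PECAM1 0.862. Median r with BOLA-DRA was -0.20 for the granulosa list, 0.08 for theca, 0.09 for endothelium and -0.13 for red blood cells. The granulosa list mean was highest in follicle 8 (0.31) and lowest in J980 (-0.58), and stood at 0.18 in C32 and 0.01 in C26. C32 and C26, highest in BOLA-DRA, were not lowest in the granulosa list mean, while J980, next in BOLA-DRA (0.58), was. The J980 mean leaned on INHBA (-2.69) and FST (-2.05) and does not describe every gene of the list. INHA was also lowest in J980 (-0.77), whereas GATM was highest there (0.71). The part of granulosa cell content in the class II levels was not tested.

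Of the 1061 genes past the F test threshold, those most like each class II gene over 16 follicles were listed by Pearson r, as a description. After BOLA-DQA1, BOLA-DRA was closest to RHBG (0.940), LOC515676 (0.921), LOC618541 (0.914), SDR39U1 (0.912) and CARS1 (0.910). BOLA-DRB3 was closest, after BOLA-DQA1, to CD74 (0.955), LOC524810 (0.938), IGHM (0.923), SDR39U1 (0.922) and CORO1A (0.921), an actin-binding protein of leukocytes. CD74 was closest to BOLA-DRB3 and BOLA-DQA1 (0.936), and next to NUCB1 (0.916), C1QB (0.915), SDR39U1 (0.908) and LAPTM5 (0.900), a lysosomal protein of blood cells. Several of these were as close to IGHG1: r with IGHG1 was 0.948 for SDR39U1, 0.962 for CARS1, 0.956 for LOC524810 and 0.966 for IGHM, while for LOC618541 it was 0.721.

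The genes closest to BOLA-DMA were CD99 (0.779), a cell surface glycoprotein, NPC2 (0.613), a lysosomal cholesterol carrier, EIF4A1 (0.601), MSH6 (0.588), GLO1 (0.575) and SELENOP (0.572). CD99 was highest in 33 (0.55) and lowest in H893 (-0.81). These correlations were lower than those of the other 3 genes, and BOLA-DMA itself did not pass the F test.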

How the data were processed

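The deposited table held the authors' log ratios of 24 2-colour arrays, taken as log2 of Cy5 over Cy3. Per the labels, 5 µg of total RNA per follicle was hybridised and images were measured in GenePix Pro 4.0.1.12. How spots were filtered and background and dyes were handled is not stated in the sources used. Of 17418 features, 13605 had 1 symbol, 829 several and 2984 none. All value columns were assigned to samples. The median of each array was set to 0, and features measured on 20 or more arrays were averaged per symbol. Follicle levels and a dye term were fitted with limma 3.58.1 (R 4.3.3). Genes with values on all 24 arrays had 8 residual degrees of freedom, and others had fewer. F tests over follicles, 120 pair contrasts per gene and F tests on differences from other genes were adjusted by Benjamini-Hochberg at 0.05, and correlations used scipy 1.17.1. The fit was tested on simulated data. No 2 arrays were identical. The members and gene lists were chosen with earlier results of these data known. Named genes are the 4 members, up to 6 genes of smallest p per list (the 1 of smallest p where none passed), the correlation partners and the 6 genes most like each member, plus BOLA-DMB, CTSS, GBP5 and TYROBP, chosen after their values were seen. Promoter sequences were not analysed here.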

Additional observations from a re-analysis of the deposited data

How the results depend on the processing

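Each follicle was on 3 arrays, and a gene with values on all 24 arrays left 8 residual degrees of freedom. BOLA-DMA, with values on 20 arrays, left fewer. Arrays give no count of molecules, so their number limits the precision. The fit used the pairing of follicles on each array through its log ratios. No other pairing is given, and replicate numbers only name arrays in accession order. The count of genes past the F test was 608 with no dye term, 589 with unmoderated variances, 683 without J980, 476 without C26 and C32, and 684 to 1175 when 1 array was left out. Without C26 and C32, adjusted p was 0.0595 for BOLA-DRB3 and 0.158 for CD74, and the pairs past the threshold were 27 for BOLA-DRA, 0 for BOLA-DRB3, 4 for BOLA-DMA and 0 for CD74. That fit has fewer follicles and arrays. With 1 array left out, pairs ranged from 34 to 83 for BOLA-DRA, 25 to 63 for BOLA-DRB3, 0 to 6 for BOLA-DMA (22 fits) and 9 to 50 for CD74. With 1 feature per gene, CD74 had 27 pairs, and 9 of the 42 correlations passed, against 18. Leaving out an array or a follicle gave 16 to 28 correlations, with 28 without the array of C26 against 33. BOLA-DRA, BOLA-DRB3 and CD74 kept their F test call in each of the 24 fits that left out 1 array.

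Correlations of BOLA-DMA had no stable sign. With 1 array or follicle left out, r ranged from -0.257 to 0.509 with BOLA-DRA, -0.127 to 0.682 with BOLA-DRB3, -0.123 to 0.521 with CD74, -0.323 to 0.238 with ISG15, -0.221 to 0.35 with MX1, -0.369 to 0.55 with CIITA, -0.353 to 0.409 with IGHG1, -0.265 to 0.582 with JCHAIN, -0.565 to 0.379 with CD68, -0.491 to 0.738 with PTPRC, -0.071 to 0.573 with CXCR4 and -0.19 to 0.433 with B2M. With no dye term, r of BOLA-DMA was -0.014 with BOLA-DRA and -0.087 with CD68, and without C26 and C32 it was 0.333 with CIITA. With 1 feature per gene, r was -0.036 for CD74 with ISG15 and -0.028 for BOLA-DRA with B2M, and r of BOLA-DRA with B2M was also -0.028 with features on all 24 arrays. The cause of these changes was not tested. Among single genes and correlations, 204 values lost and 33 gained a call over all alternatives, 43 changed sign and 3292 kept their sign and call. Features on all 24 arrays and the fits without J980, without the array of 27 against C32 and without that of J980 against 8 gave no value for BOLA-DMA, and the differences from other genes were not run with unmoderated variances.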

Other observations

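PECAM1, an adhesion molecule listed here as an endothelial gene, followed the class II order. It was at 2.38 in C26 and -1.24 in H893 (limma, adjusted p = 0.00511), and its r was 0.862 with BOLA-DRA, 0.917 with BOLA-DRB3, 0.891 with CD74 and 0.983 with IGHG1. It was measured by 1 feature on 23 arrays. The median r of the 8 endothelial genes with BOLA-DRA was 0.09, so the list as a whole did not share this order.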
